A study of Mus musculus with 45 samples.

Results

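Genes of glucose use and of the response to low oxygen were followed across 45 mouse mammary tumours. The set had 37 listed genes, of which 35 were measured by a probe set that carries that gene symbol alone. Where a gene had several such probe sets, the one with the highest mean over the tumours stood for it. Gpi1 and Eno1 had no such probe set and were not analysed here. All 35 passed a filter on low values that left 12123 of 18820 genes, and the rule used no difference between tumours or hosts. Of the 35, 19 act in glucose uptake, glycolysis and the fate of pyruvate and lactate. A further 13 are genes induced by hypoxia, and the last 3 (Hif1a, Epas1 and Txnip) encode regulators.

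The tumours arose from pieces of Trp53-null BALB/c mammary tissue that had been placed in inguinal fat pads. The hosts were female, wild-type and also BALB/c, were 10 weeks old at transplantation, and had been cleared of their own mammary epithelium when 3 weeks old. Only the hosts were exposed, 3 days before transplantation, either to a sham procedure (18 tumours) or to silicon (Si) ions at 10 cGy (9 tumours), 30 cGy (10 tumours) or 80 cGy (8 tumours). Silicon ions are heavy charged particles. All groups shared the Trp53-null donor tissue and the cleared wild-type host, transplants were watched for 600 days, and tumours were taken at 1 cm3. Values are log2 expression per probe set from single-colour Affymetrix arrays, 1 array a tumour, and array medians lay between 5.48 and 5.80. The number of arrays limits the precision.

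The labels do not say whether each tumour had its own host. Their codes place 16 tumours in 8 pairs with a shared stem, always within a host group. Within each pair the codes differ only in the ending L or R, so the paired tumours may share a host. The main fits treat all 45 tumours as separate, so p-values measure the spread between these samples. The epithelial keratin Krt8 ranged from 7.01 to 13.36 and lay above the median of the whole table, 5.67, in 45 of 45 tumours. Epcam, an epithelial adhesion molecule, did so in 44 of 45. In 6 tumours (3 sham, 1 at 30 cGy and 2 at 80 cGy) the mean level of skeletal muscle or fat cell genes stood more than 2 log2 units above its mean over all tumours. In whole-tumour RNA, fewer cells of a type and less RNA per cell cannot be told apart.

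Cells take up glucose through transporters such as Slc2a1 and split it to pyruvate by glycolysis. When oxygen is short, the HIF alpha proteins (encoded by Hif1a and Epas1) escape destruction, pair with Arnt and bind hypoxia response elements, whose core is ACGTG or GCGTG. Their targets raise glucose uptake, turn pyruvate into lactate and export it, keep pyruvate out of the mitochondrion and buffer acid. HIF alpha activity is set largely at the protein level, so mRNA of the targets is commonly read in its place. Txnip binds thioredoxin, limits glucose uptake and is itself induced by glucose.

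The promoters of the 5 genes that varied most closely with the rest of the set are shown with that of Txnip, the gene with the lowest such correlation, because the first 5 hold the core ACGTG and the last does not, although it holds GCGTG. Each stretch holds the 160 bases before the transcription start, 5′ to 3′ on the gene's strand, from RefSeq on GRCm38.p6, and capitals mark ACGTG on either strand (read as CACGT on the other). The stretches lie at chr4:119108585-119108744 (Slc2a1, plus strand), chr7:138909507-138909666 (Bnip3, minus strand), chr11:120948907-120949066 (Slc16a3, plus), chrX:106186940-106187099 (Pgk1, plus), chr4:43506866-43507025 (Car9, plus) and chr3:96557797-96557956 (Txnip, plus).
Slc2a1: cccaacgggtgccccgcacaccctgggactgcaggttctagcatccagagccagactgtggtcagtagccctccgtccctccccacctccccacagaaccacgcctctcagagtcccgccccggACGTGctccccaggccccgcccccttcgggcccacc
Bnip3: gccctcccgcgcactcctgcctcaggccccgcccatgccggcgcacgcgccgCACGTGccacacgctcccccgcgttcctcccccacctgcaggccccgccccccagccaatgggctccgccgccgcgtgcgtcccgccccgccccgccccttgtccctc
Slc16a3: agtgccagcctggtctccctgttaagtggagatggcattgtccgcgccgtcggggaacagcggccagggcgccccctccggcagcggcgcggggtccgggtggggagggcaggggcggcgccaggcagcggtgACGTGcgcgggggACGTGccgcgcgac
Pgk1: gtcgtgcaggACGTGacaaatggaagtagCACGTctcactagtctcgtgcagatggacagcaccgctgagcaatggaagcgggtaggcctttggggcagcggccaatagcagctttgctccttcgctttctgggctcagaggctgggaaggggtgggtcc
Car9: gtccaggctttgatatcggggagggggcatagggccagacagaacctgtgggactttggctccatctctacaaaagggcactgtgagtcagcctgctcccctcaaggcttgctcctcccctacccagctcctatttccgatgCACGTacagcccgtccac
Txnip: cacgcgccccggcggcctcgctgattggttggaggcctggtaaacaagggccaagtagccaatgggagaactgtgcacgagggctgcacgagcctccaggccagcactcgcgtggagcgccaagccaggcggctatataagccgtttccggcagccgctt
The match in Slc2a1 starts 36 bases before the transcription start, that in Car9 18 bases before it, and those in Slc16a3 27 and 14 bases before it. In Bnip3 the capitals are CACGTG, which reads the same on both strands and so counts as 2 overlapping matches. Promoter windows of 300 bases (250 before the start and 50 after) were found for 32 of the 35 genes. ACGTG stood on either strand in 22 of the 32 (68.8%), against 21.8% of all 27025 genes in the table, and in 24 of their 42 windows (57.1%), against 19.6% of all 32851 windows. GCGTG stood in 21 of 32 genes (65.6%), against 35.2% of all genes, and in 54.8% of their windows, against 32.4% of all windows. CACGTG, which contains ACGTG, stood in 4 of 32 (12.5%), against 8.09% of all genes, and in 9.52% of their windows, against 7.15% of all windows. The median correlation with the rest of the set was 0.49 for genes with ACGTG in the window and 0.47 for those without. For the other 2 motifs the order was reversed, at 0.47 with and 0.56 without GCGTG, and 0.44 with and 0.48 without CACGTG. None of these differences was tested. A match describes the letters only. The window of Txnip held no ACGTG, which says nothing about the factor at that gene.

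By their medians, the 35 genes differed more from tumour to tumour than all genes did, and little of that spread lay between the host groups. Their median standard deviation over the 45 tumours was 0.63 log2 units and their median range 2.79, against 0.43 and 2.02 over all 12123 genes. The genes compared were not matched for expression level, and the processing compresses differences among low values. The median share of a gene's variance that lay between the 4 host groups was 6.04% in the set and 5.54% over all genes, from 0.519% for Ndrg1 to 21.3% for Txnip. Aldoc, an aldolase isoform best known from brain, varied most, from 5.81 to 12.56 (SD 1.71, percentile 98.5 among all genes). Car12, Adm, Car9 and Egln3 followed with SDs of 1.38, 1.22, 1.15 and 1.02. Ldha, the lactate dehydrogenase subunit that makes lactate from pyruvate, was among the steadiest genes of the array, with values between 12.12 and 13.04 (SD 0.21, percentile 2.73). Pgam1, Hk1, Egln1 and Tpi1 also varied less than most genes (percentiles 39.5, 41.4, 44.3 and 47.6).

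**Figure D1:**
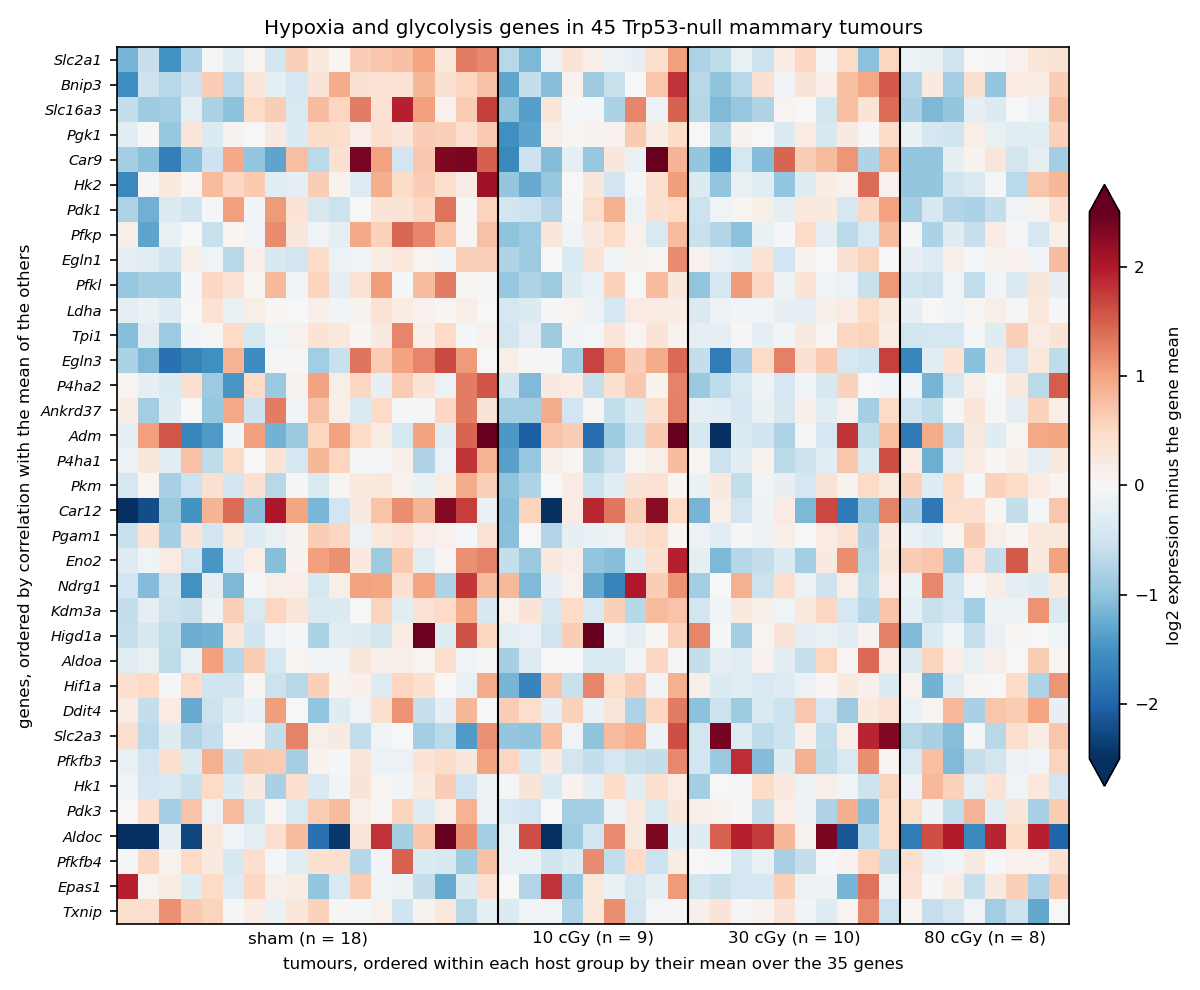
Log2 expression of the 35 genes (rows) in 45 tumours (columns), each minus the gene's mean over all tumours, with tumours grouped by host and ordered within a group by their mean over the set. Red and blue run along the columns in many of the upper rows, which are ordered by correlation with the rest of the set, in every host group, and Aldoc near the bottom has the widest range (5.81 to 12.56).

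Many of the genes varied together across tumours. For each gene, its level was correlated over the 45 tumours with the mean of the rest of the set, and the same was done for every other gene on the array against the mean of the 35. Pearson's r was above 0 for 32 of the 35 genes, with a median of 0.47 against -0.04 over all 12123 genes. It passed a two-sided permutation test (100000 resamples, Benjamini-Hochberg over all 12123 genes, adjusted p under 0.05) for 14 of the 35, all with r above 0. Over all genes tested, 0.223% passed with r above 0 and 0.313% with either sign. With Spearman's rho, 12 of the 35 passed. The genes were put together for a known common role, and the set was proposed with earlier results of these data known, so that the count is a description of how far that role shows in these tumours.

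Slc2a1, the main glucose transporter of many tumours, varied most closely with the rest (r 0.81, rho 0.78, permutation p 1e-05 for both, which is the smallest the resamples can give, and adjusted p 0.00933 and 0.00866). Its r was 0.78 without the 2 tumours farthest from the median, 0.91 in the 18 sham tumours and 0.73 in the 27 tumours of Si hosts. Bnip3, a mitochondrial protein that promotes mitophagy, came next (r 0.76, rho 0.70), then Slc16a3, the lactate exporter MCT4 (r 0.75, rho 0.75). Pgk1, which makes the first ATP of glycolysis, followed at r 0.68 and Car9, a cell-surface carbonic anhydrase, at 0.65. The other 9 were Hk2 (0.63), Pdk1 (0.63), Pfkp (0.61), Egln1 (0.60), Pfkl (0.60), Ldha (0.59), Tpi1 (0.59), Egln3 (0.56) and P4ha2 (0.53). For all 14, r was above 0 within the sham tumours and within those of Si hosts. Without the 6 tumours rich in muscle or fat genes, Slc2a1 had r 0.85, Bnip3 0.79 and Slc16a3 0.76 (39 tumours).

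Among the genes that did not pass, Ankrd37 had r 0.51 (adjusted p 0.08), Adm 0.48, P4ha1 0.47, Pkm 0.47 and Car12 0.45. Others were near 0, among them the hexokinase Hk1 (0.15), the pyruvate dehydrogenase kinase Pdk3 (0.15) and Pfkfb4 (-0.08). Aldoc had r 0.11 over all tumours, 0.53 in sham tumours and -0.10 in those of Si hosts. Txnip had the lowest r, -0.29 (adjusted p 0.50), with -0.77 in sham tumours and -0.10 in tumours of Si hosts. The difference in r between sham and Si hosts was tested for neither gene.

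**Figure D2:**
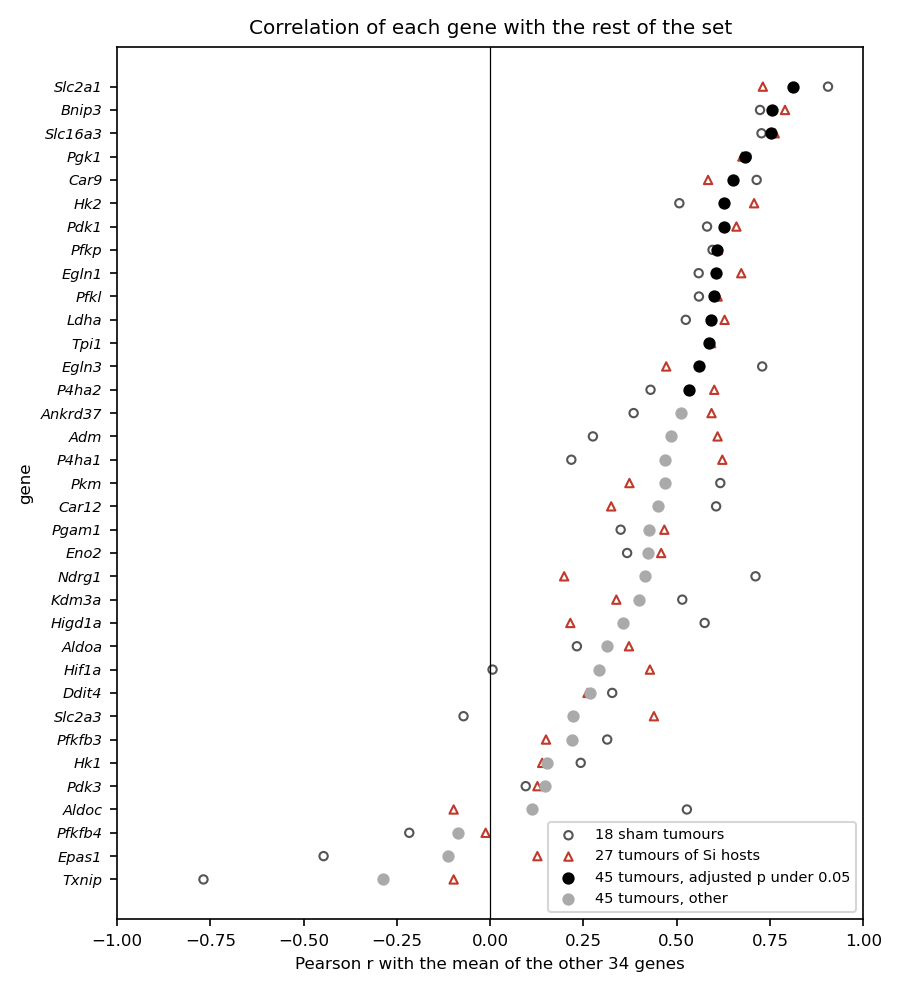
Pearson's r of each gene with the mean of the rest of the set over 45 tumours (filled points, black where the adjusted permutation p is under 0.05), within 18 sham tumours (open circles) and within 27 tumours of Si hosts (triangles). Slc2a1 leads at 0.81, 14 genes pass, and Txnip at -0.29 lies lowest, with its sham value at -0.77.

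Among the 595 pairs of members the median r was 0.20, and 77 pairs (12.9%) exceeded 0.5, against a median of 0.01 and 2.54% over all gene pairs. Aldoa and Ldha, early and last enzymes of the path to lactate, were the closest pair (r 0.78). Both were highest in 30 cGy replicate 1 (13.48 and 13.04) and next in sham replicate 15 (13.08 and 12.93). These tumours also had the highest means of skeletal muscle genes (6.15 and 5.42), whose part in this r was not tested. Eno2 with Adm and Pgk1 with Slc16a3 each reached 0.72. Some members ran in opposite directions: Pfkfb4 with the histone demethylase Kdm3a at -0.53, Aldoc with Hif1a at -0.50 and Pgam1 with Epas1 at -0.50. The mean of the 13 hypoxia-induced genes and the mean of the 19 glycolytic genes, each taken after centring every gene on its own mean, correlated at r 0.81 over the tumours. Pairs are given as a description, since all values come from the same 45 arrays.

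Genes outside the set with the most similar pattern were named by their r with these means over the 45 tumours, again as a description. With the hypoxia-induced mean they were Ak4, a mitochondrial adenylate kinase (r 0.81), Vegfa, the angiogenic growth factor (0.78), Ero1a, an oxidase of protein folding (0.72), Ier3 (0.67) and Fam162a (0.65). With the glycolytic mean they were Ak4 (0.77), Vegfa (0.72), Ier3 (0.72), Gapdh, a glycolytic enzyme left out of the set (0.69), and Gm12070 (0.65). The lowest r with the hypoxia-induced mean belonged to Fkbp5 (-0.65), Aox1 (-0.63), Abhd15 (-0.60), S100a13 (-0.60) and Engase (-0.59). With the glycolytic mean the lowest were Nudt13 (-0.63), Mxd4 (-0.62), Wdr5b (-0.59), Rpusd1 (-0.58) and Trim26 (-0.58).

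Of the 2 glucose transporters, Slc2a1 ran from 9.68 through a median of 11.35 to 12.47 in sham tumours. Its lowest, median and highest values were 10.09, 11.08 and 12.22 at 10 cGy, 10.17, 11.09 and 11.74 at 30 cGy, and 10.70, 11.17 and 11.54 at 80 cGy. The groups overlapped throughout, and the 80 cGy tumours filled the middle of the sham range. The mean of the 3 doses minus sham was -0.18 ± 0.19 (SE) log2 units, with a 95% interval of -0.57 to 0.21. Slc2a3, a high-affinity transporter of neurons and white cells, differed by 0.28 ± 0.26.

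In the upper part of glycolysis, Hk2 (the inducible hexokinase that traps glucose in the cell) had a lowest, median and highest value of 5.70, 7.67 and 9.45 in sham tumours. The corresponding values were 6.06, 7.29 and 8.36 at 10 cGy, 6.33, 7.09 and 8.72 at 30 cGy, and 6.36, 6.89 and 8.16 at 80 cGy. Of the 27 tumours of Si hosts, 22 lay below the sham mean, and every group lay within the sham range. The difference was -0.49 ± 0.21 (unadjusted p 0.0278, limma adjusted p 0.82). Pfkp, the platelet-type phosphofructokinase, had lowest, median and highest values of 7.70, 9.12 and 10.46 in sham tumours and 8.23, 8.84 and 9.20 at 80 cGy. All 8 tumours at 80 cGy lay below the sham mean of 9.29, though not below the sham range. Its difference over the 3 doses was -0.45 ± 0.18 (unadjusted p 0.0157, limma adjusted p 0.80), and 22 of 27 tumours lay below the sham mean. Pfkl differed by -0.27 ± 0.18, Tpi1 by -0.06 ± 0.13, Aldoa by -0.01 ± 0.13 and Hk1 by 0.13 ± 0.12. Aldoc differed by 0.73 ± 0.51 (95% interval -0.29 to 1.75). Pfkfb3 and Pfkfb4, which set the level of the activator fructose 2,6-bisphosphate, differed by -0.22 ± 0.20 and -0.13 ± 0.15.

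Lower in the pathway, Pgk1 had lowest, median and highest values of 10.20, 11.42 and 11.81 in sham tumours, 9.61, 11.25 and 11.80 at 10 cGy, 10.43, 11.17 and 11.60 at 30 cGy, and 10.65, 10.92 and 11.72 at 80 cGy. The ranges overlapped, with 19 of 27 tumours of Si hosts below the sham mean and a difference of -0.26 ± 0.15. Of its 3 probe sets 2 held identical values, and Pgk1, Pgam1, Pkm, Tpi1, Bnip3 and Higd1a each had more than 1 probe set, so near-identical copies may share signal there. Eno2, Pgam1, Pkm and Ldha differed by -0.07 ± 0.24, -0.07 ± 0.12, 0.03 ± 0.13 and -0.06 ± 0.07. The second probe set of Pkm, with lower values, differed by -0.06.

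Slc16a3, which carries lactate out of the cell, had lowest, median and highest values of 7.44, 8.89 and 10.42 in sham tumours. These were 7.09, 8.41 and 9.95 at 10 cGy, 7.37, 8.23 and 9.86 at 30 cGy, and 7.35, 8.18 and 9.21 at 80 cGy. Its medians were lower in each dose group than in sham, while the ranges overlapped, and the difference was -0.45 ± 0.25 (95% interval -0.96 to 0.06). Pdk1 and Pdk3, kinases that shut the pyruvate dehydrogenase gate to the mitochondrion, differed by -0.17 ± 0.17 and -0.26 ± 0.16. Pdk3 had an unadjusted p of 0.0448 at 10 cGy alone (-0.44 ± 0.21, limma adjusted p 0.99).

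**Figure D3:**
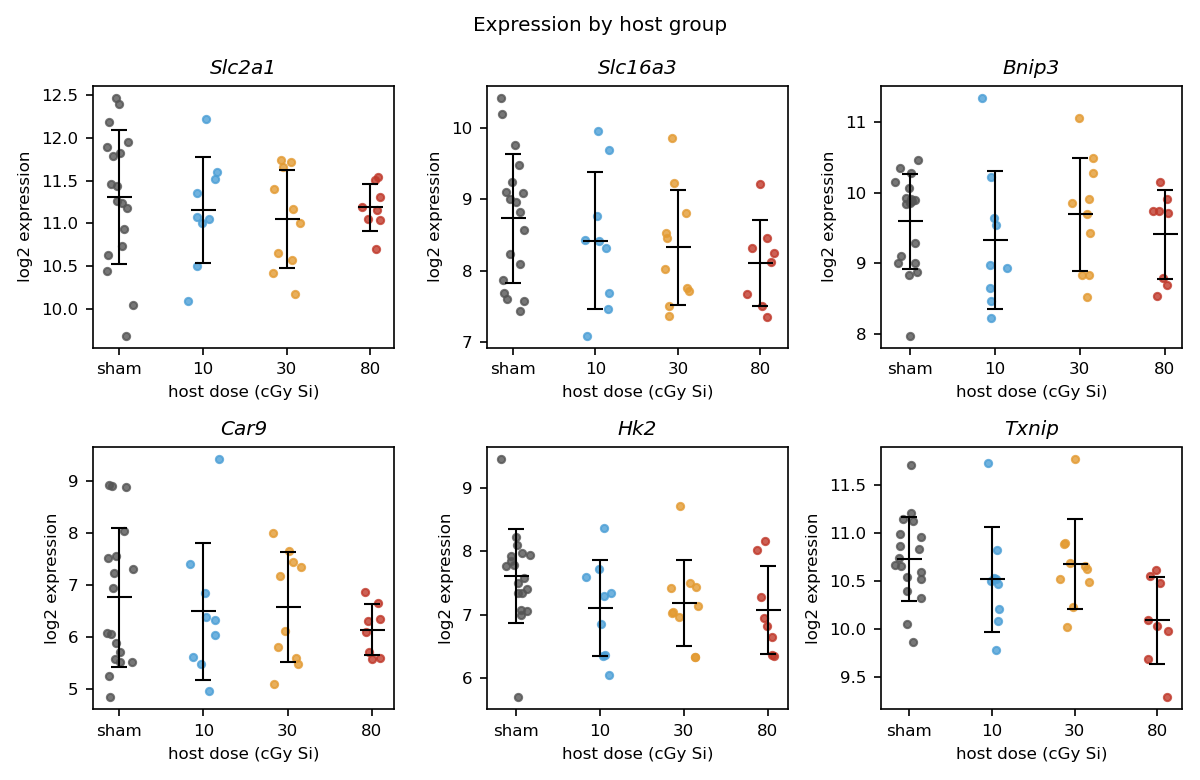
Log2 expression of Slc2a1, Slc16a3, Bnip3, Car9, Hk2 and Txnip in each tumour, by host dose (18 sham, 9 at 10 cGy, 10 at 30 cGy, 8 at 80 cGy), with bars for the mean and 1 SD. The groups overlap in every panel, and the Txnip values at 80 cGy (9.29 to 10.62) sit lowest against sham (9.86 to 11.71).

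Of the carbonic anhydrases, which hydrate carbon dioxide and help hold pH, Car9 had lowest, median and highest values of 4.84, 6.51 and 8.94 in sham tumours. It had 4.96, 6.33 and 9.43 at 10 cGy, 5.09, 6.65 and 8.02 at 30 cGy, and 5.57, 6.20 and 6.86 at 80 cGy. Sham, 10 cGy and 30 cGy tumours reached above the highest tumour at 80 cGy, and 7 of the 8 lay below the sham mean of 6.77. The SD was 0.49 at 80 cGy and 1.34 in sham tumours, a difference in spread that was not tested. The difference over the 3 doses was -0.36 ± 0.35. Car12 ranged from 4.74 to 11.11 over the 45 tumours and differed by -0.17 ± 0.42.

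Among the other hypoxia-induced genes, Bnip3 had lowest, median and highest values of 7.98, 9.87 and 10.46 in sham tumours, 8.23, 8.98 and 11.34 at 10 cGy, 8.53, 9.78 and 11.06 at 30 cGy, and 8.54, 9.73 and 10.15 at 80 cGy. The groups overlapped, with the highest tumour of all at 10 cGy, and the difference was -0.11 ± 0.23. The vasodilator peptide gene Adm ranged from 4.74 to 10.62 and differed by -0.46 ± 0.37. The collagen prolyl hydroxylases P4ha1 and P4ha2 differed by -0.33 ± 0.19 and -0.22 ± 0.21, and Ankrd37 by -0.25 ± 0.18. The oxygen sensors Egln1 and Egln3, which mark HIF alpha for destruction, differed by 0.05 ± 0.13 and 0.19 ± 0.30. The mTOR inhibitor Ddit4 differed by 0.13 ± 0.18, Higd1a by 0.14 ± 0.24, Kdm3a by -0.0019 ± 0.15 and Ndrg1 by -0.01 ± 0.25. The second probe set of Higd1a, with lower values, differed by -0.06.

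Hif1a, the oxygen-labile HIF subunit found in most cells, had lowest, median and highest values of 9.98, 10.74 and 11.60 in sham tumours, 9.01, 11.10 and 11.88 at 10 cGy, 10.28, 10.46 and 10.92 at 30 cGy, and 9.49, 10.70 and 11.76 at 80 cGy. Its groups overlapped, and the difference was -0.12 ± 0.18. Epas1, which encodes HIF-2 alpha and is abundant in endothelium, ranged from 7.74 to 10.94 and differed by -0.01 ± 0.21.

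Txnip showed the largest share of variance between host groups in the set. Its lowest, median and highest values were 9.86, 10.70 and 11.71 in sham tumours, 9.78, 10.50 and 11.72 at 10 cGy, 10.02, 10.64 and 11.76 at 30 cGy, and 9.29, 10.06 and 10.62 at 80 cGy. All 8 tumours at 80 cGy lay below the sham mean of 10.73, and the ranges overlapped. At 80 cGy the difference from sham was -0.64 ± 0.20 (95% interval -1.04 to -0.24, unadjusted p 0.00226, limma adjusted p 0.64). At 10 and 30 cGy it was -0.22 ± 0.19 and -0.05 ± 0.18, and the slope on dose was -0.0072 ± 0.0024 per cGy (limma adjusted p 0.55). A further fit used array weights, set by how closely each array followed the fitted values and not by a separate measure of quality. In it Txnip passed at 80 cGy (-0.79 ± 0.17, limma adjusted p 0.0271), as did 30 of all genes (0.247%). It also passed on the slope (-0.0093 ± 0.0020, limma adjusted p 0.0214), as did 35 genes (0.289%). Over the 12 alternatives the 80 cGy difference stayed between -0.79 and -0.58, and the lowest adjusted p without the weights was 0.26. It was -0.74 without the 6 tumours rich in muscle or fat genes. Txnip also correlated at r 0.38 with the leading component of probe sets that carry no gene symbol, which was positive in 9 of 18 sham tumours and 2 of 8 at 80 cGy, and the difference was -0.58 ± 0.19 with that component in the fit. The part of that component in the result was not tested further.

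**Figure D4:**
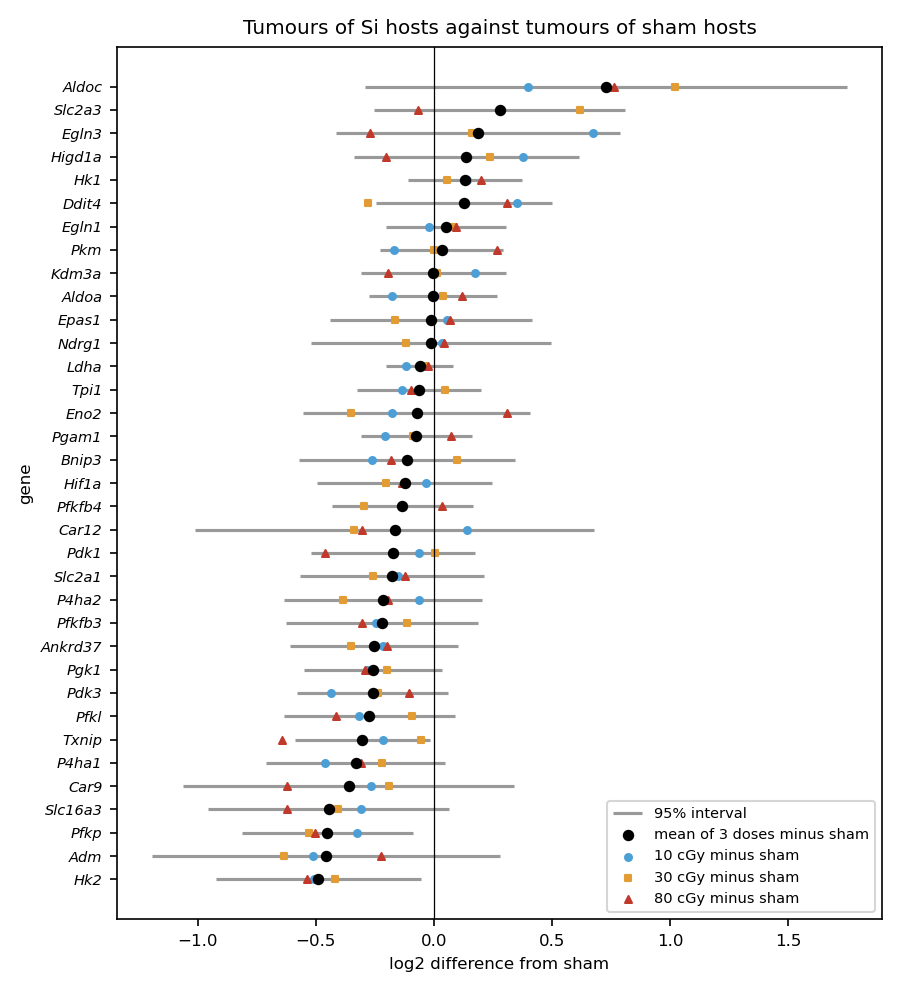
Difference of each gene from sham on the log2 scale: black points for the mean of the 3 dose groups with 95% intervals from limma, coloured points for each dose. Most points lie left of 0 (27 of 35), the intervals of Hk2, Pfkp and Txnip alone exclude 0, and none of the 35 passes after adjustment.

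Read over the whole set, the host comparison called no member. In tumours of Si hosts 27 of the 35 genes had a value below sham and 8 above, against 46.8% of all genes below, and the median difference was -0.12 against 0.01 over all genes. That lean was already part of the earlier results of these data and is no independent support. None of the 35, and 0.0% of all 12123 genes, passed limma's adjusted threshold of 0.05. At an unadjusted p under 0.05, 3 of the 35 passed (Hk2, Pfkp and Txnip), all lower in Si hosts, against 5.82% of all genes in either direction and 2.32% in that direction. That count depended on the fit. It was 1 with the component of unnamed probe sets (573 of all 12123 genes) and 2 with the code stem as a block (548). It was 5 with the muscle and fat covariates (718) and 6, of which 1 was higher, with array weights (1654). The fit given first had 706 of all genes. Of the glycolytic genes 15 of 19 and of the hypoxia-induced genes 9 of 13 lay below sham, with medians of -0.13 and -0.11. At 10 cGy 25 of 35 lay below sham (48.2% of all genes), at 30 cGy 24 (50.8%) and at 80 cGy 24 (43.4%). Each dose called 0 members and 0.0% of all genes after adjustment and 1 member without it: Pdk3 at 10 cGy, Pfkp at 30 cGy and Txnip at 80 cGy. The unadjusted shares over all genes were 3.65%, 4.45% and 6.97%. With array weights the unadjusted counts of members were 2, 6 and 8, of which 2, 1 and 3 were higher than sham. In that fit 880, 1218 and 1875 of all 12123 genes passed, against 443, 540 and 845 without the weights. At 10 cGy the count of members was 0 with the code stem as a block (338 of all genes). It was also 0 there with the component of unnamed probe sets (340 of all genes). These comparisons share the 18 sham tumours. The slope on dose and the test of any difference among the 4 groups called 0 members each, and 1 without adjustment in each, Txnip (7.43% and 4.13% of all genes).

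Other genes of the same pathways also gave no calls in any comparison with sham. Of 46 further hypoxia-response genes 41 were tested, with 26 lower and 15 higher in Si hosts and a median of -0.06. Over all genes 46.8% were lower there. By dose, 22 were lower and 19 higher at 10 cGy (median -0.01), and 27 lower and 14 higher at 30 cGy (-0.09). At 80 cGy the split turned, with 19 lower and 22 higher (0.02). The smallest p in that list was for Gbe1, the glycogen branching enzyme, at -0.48 ± 0.16 (limma adjusted p 0.80), followed by Bhlhe40 at 0.38 ± 0.20 and Pgm1 at -0.32 ± 0.18. Among partners and regulators of HIF, 12 of 13 were tested, with 8 lower and 4 higher, and Egln2, Siah2 and Cul2 differed by -0.15 ± 0.10, -0.13 ± 0.10 and 0.10 ± 0.08. Among further genes of glucose metabolism, 29 of 38 were tested, with 16 lower and 13 higher. The smallest p there belonged to G6pc3 (0.38 ± 0.19), Slc2a12 (-0.53 ± 0.26) and Minpp1 (0.19 ± 0.10).

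The members were also set beside the mean levels of marker lists of cell types, cell cycle and respiration, each the average of its genes after centring. For Hif1a, Epas1 and Txnip, r was tested by permutation with Benjamini-Hochberg adjustment over 85 relations. The 85 also held the relations of the hypoxia-induced mean and the glycolytic mean with the same lists. Hif1a was higher in tumours with higher neutrophil genes (r 0.64, rho 0.64, permutation p 1e-05 and 2e-05, adjusted p 0.00028 and 0.00034), mesenchymal genes (r 0.60, rho 0.63) and fibroblast and matrix genes (r 0.57, rho 0.56). Weaker positive relations that passed were those with macrophage genes (0.47) and endothelial genes (0.44). It was lower where luminal genes (-0.47), epithelial junction genes (-0.44) and the partners and regulators of HIF (-0.41) were higher, and these passed as well. Within the sham tumours and within those of Si hosts the r with neutrophil genes was 0.73 and 0.62, and without the 2 tumours farthest from the median of Hif1a it was 0.60.

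Epas1 followed endothelial genes (r 0.81, rho 0.67, permutation p 1e-05 each, adjusted p 0.00028 and 0.00034), with r 0.84 in sham tumours, 0.80 in those of Si hosts and 0.69 without the 2 farthest tumours. Those 2, sham replicate 16 and 10 cGy replicate 1, also had low means of epithelial junction genes (-2.63 and -2.89). No relation of Txnip passed, the strongest being that with cell cycle genes (r -0.39, rho -0.32, adjusted permutation p 0.057 and 0.13).

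For the hypoxia-induced mean and the glycolytic mean, r is given as a description, without p-values. Both were higher where the further hypoxia-response genes were higher, with r 0.67 and 0.78. With cell cycle genes r was 0.21 and 0.04, with oxidative phosphorylation genes -0.08 and 0.25, and with skeletal muscle genes -0.16 and 0.11. The hypoxia-induced mean had r 0.41 with squamous genes and 0.38 with basal genes. In sham tumours both means ran with epithelial junction genes (r 0.58 and 0.63), and in those of Si hosts they did not (0.06 and 0.01), a difference that was not tested.

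**Figure D5:**
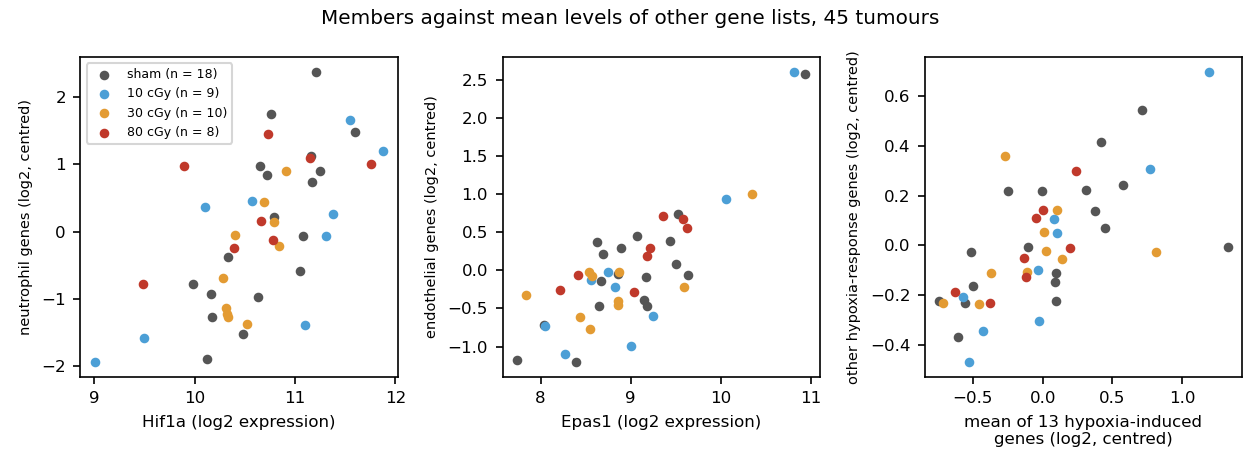
Relations over 45 tumours, coloured by host group: Hif1a against the mean of neutrophil genes, Epas1 against the mean of endothelial genes, and the mean of 13 hypoxia-induced genes against that of further hypoxia-response genes, all in log2 units. Over all tumours r is 0.64, 0.81 and 0.67, and 2 tumours stand apart at the top right of the Epas1 panel.

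Single tumours stood at the ends of several genes at once. The hypoxia-induced mean ran from -0.74 (sham replicate 5) to 1.33 (sham replicate 11), and the next highest group maximum was 1.20 (10 cGy replicate 8). Replicate 8 of the 10 cGy group had the highest value of all tumours in 4 genes (Bnip3, Ddit4, Egln1 and Eno2), and replicate 2 of that group the lowest in 5 (Aldoa, P4ha1, Pgam1, Pgk1 and Pkm). Among sham tumours, replicate 7 was highest in 4 (Adm, Hk2, P4ha2 and Pgk1), as were replicate 2 (Aldoc, Car12, Pdk1 and Pfkl) and replicate 3 (Pfkfb4, Pfkp, Slc16a3 and Tpi1), the last being 1 of the 6 rich in muscle or fat genes. Sham replicate 16 was lowest in 4 (Aldoc, Bnip3, Hk2 and Tpi1). Replicate 1 of the 30 cGy group was highest in 3 (Aldoa, Ldha and Txnip) and was also the tumour with the most skeletal muscle RNA by its marker genes, whose part in these values was not tested. Sham tumours held both ends of that mean, while at 80 cGy it ran from -0.63 to 0.24.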

How the data were processed

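Total RNA of 45 tumours was hybridised to single-colour arrays. The deposited log2 values had been made by the authors with RMA in the oligo package, per the submitters' processing notes; the sources used here give no version of either. RMA compresses differences among low values. Of 35556 probe sets, 21218 carried 1 gene symbol, 1881 several and 12457 none. They named 18820 genes, each represented by its highest-mean probe set and kept where above the table median in at least 8 tumours.

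Groups came from the sample titles. The 4 group means, or dose as a number, were fitted over all 12123 genes with limma 3.58.1 in R 4.3.3 (lmFit, eBayes, no covariate), two-sided, with Benjamini-Hochberg adjustment at 0.05. Errors of differences are standard errors. Correlations used permutation p-values (100000 resamples, NumPy 2.4.6). For each gene with the rest of the set, these were adjusted over all 12123 genes. Scripts were tested on simulated data. Named genes were all members, the 3 with the smallest p in each other pathway list, and the 5 non-members highest and lowest in r with each mean. Alternatives covered the filter, centring, quantile normalization, the mean over probe sets, array weights, an eBayes trend, the replicate number and code stem as blocks, and muscle and fat genes. Members, lists and tests were chosen with earlier results of these data known.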

Additional observations from a re-analysis of the deposited data

Results flagged for a closer look

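Within the dose groups, a tumour stood far from the nearest other tumour of its group in 8 of 111 groups of 8 to 10 values examined. Chance alone flags about 5% of groups, that is 1 in 20. In the 80 cGy group, Egln1 was 9.578 in replicate 1 (nearest tumour 8.94), Kdm3a was 10.21 in replicate 5 (nearest 8.97), and Ndrg1 was 12.14 in replicate 7 (nearest 11.19). P4ha1 was lowest in that same replicate 7, at 8.565 (nearest 9.55). In the 10 cGy group, Eno2 was 8.997 in replicate 8 (nearest 7.47) and Higd1a was 9.19 in replicate 5 (nearest 7.24). In the 30 cGy group, replicate 1 stood apart for Hk2 at 8.719 (nearest 7.51) and for Txnip at 11.76 (nearest 10.89). That tumour also had the highest mean levels of skeletal muscle genes (6.15) and fat cell genes (4.39) of the 45, relative to each list's mean, and their part in these values was not tested.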

How the results depend on the processing

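Of the 35 differences from sham under 12 alternatives, 403 of 420 kept their sign, and none was called. The 17 that turned sign belonged to 7 genes with main values near 0 relative to their errors. Centring arrays on their medians gave 0.0011 for Aldoa and 0.0047 for Kdm3a. The mean over all probe sets gave -0.012 for Pkm, and the component of unnamed probe sets gave -0.0051, an alternative chosen after seeing the data. Array weights gave 0.19 for Car12, 0.13 for Kdm3a and 0.033 for Ndrg1. The muscle and fat covariates gave 0.034 for Aldoa and 0.032 for Epas1; leaving out the 6 tumours rich in such genes gave 0.063 for Aldoa and 0.030 for Ndrg1. The code stem as a random block (consensus correlation 0.24) gave 0.00097 for Ndrg1. With the replicate block the values were 0.064 for Aldoa, -0.045 for Egln1, 0.26 for Epas1, 0.043 for Kdm3a and 0.094 for Ndrg1. That block called 0 members in every comparison, and over all genes 6 for Si hosts against sham and 1 at 80 cGy, where the fit without it called 0. Members at an unadjusted p under 0.05 numbered 1 to 6 for Si hosts over all alternatives (3 in the report), 0 to 2 at 10 cGy, 1 to 6 at 30 cGy and 1 to 8 at 80 cGy (1 each in the report). Each highest count was reached with array weights, where more of all 12123 genes passed as well. Those were 1654, 880, 1218 and 1875 genes in the same order, against 706, 443, 540 and 845 in the report. At 10 cGy the muscle and fat covariates also gave 2 members, both lower than sham, with 460 of all genes. The 2 members with array weights there were both higher than sham. Replicate numbers did not pair the tumours: same-numbered tumours of different groups correlated at a median r of -0.07 in their deviations from the group means. Most of the 80 counts under the alternatives were counts of members called, where the main count was 0. Agreement at 0 says little about stability, since the unadjusted counts above did move. Of the 80, 78 equalled the main count or stayed within a fixed factor of it. The others were the counts of members called with array weights, 1 at 80 cGy and 1 on the slope, both Txnip; the cause was not tested. Over the alternatives, 13 to 15 genes passed the correlation with the rest of the set. With 8 to 18 tumours a group and SDs near 0.63, a difference within the intervals given may be missed.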
